A study of Mus musculus with 32 samples.

Results

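Transcripts of 7 small heat shock proteins (*Hspb1*, *Hspb2*, *Hspb3*, *Hspb6*, *Hspb7*, *Hspb8* and *Cryab*) and of their co-chaperone *Bag3* were followed in the skeletal muscle of *Mtm1* KO and WT mice. The 8 genes were chosen by name from the 54838 genes of the count table, with earlier results of these data known. All 8 passed the filter on low counts in every comparison. Poly(A) RNA from the tibialis anterior (TA), a leg muscle of mostly fast fibers, was sequenced as 1 library per mouse in 32 C57BL6/J mice. *Mtm1* encodes myotubularin, a phosphatase of phosphoinositide lipids whose loss causes X-linked myotubular myopathy, and the KO carries a deletion in exon 4 in every cell of the body. Each of the 8 groups held n=4 libraries, WT or KO at 1, 14, 21 or 35 days of age (P1, P14, P21 and P35). WT mice of the same ages were the controls, no group received a treatment, and the labels name no litter, batch or sex.

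Small heat shock proteins are chaperones that work without ATP. They share an alpha-crystallin domain, assemble into oligomers, and hold unfolding proteins until the ATP-driven HSP70 system can refold or hand them on. In striated muscle they bind actin, desmin, titin and filamin, mostly at the Z-disc, where contraction strains proteins. BAG3 bridges HSPB8, HSP70 and the ubiquitin ligase CHIP, and this complex sends damaged filamin to the autophagosome, a route called chaperone-assisted selective autophagy. Inherited variants of *HSPB8*, *CRYAB* and *BAG3* cause myofibrillar myopathies, in which protein aggregates form around Z-discs.

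The libraries totalled between 49321019 and 85631391 counts, of which each of the 8 genes held from 823 to 108151. Levels are given as CPM, counts scaled to library sizes adjusted by TMM, and differences are on the log2 scale with a standard error (SE) from edgeR's quasi-likelihood test, a KO difference being that of KO over WT. A gene was called at an adjusted *P*-value under 0.01 together with a change of over 1.5-fold in either direction. *Mtm1* itself, the targeted gene, was at 18.9 to 21.8 CPM in WT and 2.64 to 3.69 CPM in KO libraries at P21, and the genotypes were apart at every age, though at P1 the difference of -0.98 on the log2 scale was not called (adjusted *P*=0.0669). Markers of fast fibers, the defining cells of the TA, were abundant in every library from P14 on, with sums over 10 genes of 96100.1 CPM or more. These are values of whole muscle, in which fewer cells of a type and less RNA per cell cannot be told apart. The *P*-values of edgeR's test set a difference against the spread between these mice.

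On GRCm38, *Hspb1* (ENSMUSG00000004951) lies at chr5:135887919-135889563 on the plus strand and *Hspb8* (ENSMUSG00000041548) at chr5:116408491-116422864 on the minus strand. *Hspb6* (ENSMUSG00000036854, chr7:30552178-30555443) and *Bag3* (ENSMUSG00000030847, chr7:128523616-128546981) are both on the plus strand, as is *Hspb7* (ENSMUSG00000006221, chr4:141420779-141425311). *Hspb3* (ENSMUSG00000051456, chr13:113662896-113663676, minus strand) has 1 exon. *Hspb2* (ENSMUSG00000038086, chr9:50751078-50752354, minus strand) and *Cryab* (ENSMUSG00000032060, chr9:50751325-50756636, plus strand) are neighbors on opposite strands, and their exons share 252 bases, which is 30.2% of the exon bases of *Hspb2* and 17% of those of *Cryab*. The libraries mark strand, but no source used here says whether the counting did, and values of both genes are uncertain to that extent. *Hspb1* values were not whole numbers in 32 of 32 libraries, and its pseudogene *Hsp25-ps1* was given 0.879% to 1.82% of their joint count. The values of the other 7 genes, *Hspb2* and *Cryab* included, were whole in all 32 libraries. The exons of *Hspb6* share 122 bases with those of *Proser3* on the opposite strand, which is 5.31% of them.

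The promoters of 6 of the 8 genes, 250 bases before and 50 after the start of transcription, were taken from RefSeq on GRCm38.p6. *Hspb6* has 2 of them, and *Hspb2* and *Cryab* had no match in the table. These windows were searched on both strands for the core of a heat shock element, the site of heat shock factors, written head to head as GAANNTTC or tail to tail as TTCNNGAA, which are different palindromes that can share letters, and for the AP-1 site TGANTCA. The head-to-head form was in 5 of the 7 windows, against 7.86% of all 32851 promoters in the table, and the tail-to-tail form was in 0 of 7, against 8.52%. The sequences below are of 2 genes that were called higher in KO (*Hspb1* and *Hspb8*) and 2 that were not (*Hspb6* and *Bag3*). All of these hold the head-to-head form, but *Hspb6* only in its second promoter, the first having no match to either form. The last sequence is of *Hspb7*, which was called higher and does not hold it. Heat shock element letters are in capitals, and each runs 5′ to 3′ on the strand of its gene.
Hspb1, chr5:135887669-135887968: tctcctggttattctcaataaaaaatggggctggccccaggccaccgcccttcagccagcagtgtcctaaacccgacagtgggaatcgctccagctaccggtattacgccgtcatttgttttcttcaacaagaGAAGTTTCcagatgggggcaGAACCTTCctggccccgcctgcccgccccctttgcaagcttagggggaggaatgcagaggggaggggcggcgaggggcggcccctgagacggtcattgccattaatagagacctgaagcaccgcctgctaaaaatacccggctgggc
Hspb8, chr5:116422815-116423114: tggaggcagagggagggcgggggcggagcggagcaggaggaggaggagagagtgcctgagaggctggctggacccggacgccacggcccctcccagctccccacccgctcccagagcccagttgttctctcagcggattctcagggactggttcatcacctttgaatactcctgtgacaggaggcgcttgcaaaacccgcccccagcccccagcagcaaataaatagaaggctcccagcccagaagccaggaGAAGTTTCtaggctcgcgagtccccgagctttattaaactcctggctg
Bag3, chr7:128523333-128523632: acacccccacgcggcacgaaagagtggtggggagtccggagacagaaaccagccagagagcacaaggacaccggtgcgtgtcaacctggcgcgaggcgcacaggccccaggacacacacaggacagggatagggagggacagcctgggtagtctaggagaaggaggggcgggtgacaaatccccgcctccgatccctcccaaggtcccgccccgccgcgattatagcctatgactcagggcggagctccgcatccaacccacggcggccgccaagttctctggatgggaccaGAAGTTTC
Hspb6, second promoter, chr7:30553051-30553350: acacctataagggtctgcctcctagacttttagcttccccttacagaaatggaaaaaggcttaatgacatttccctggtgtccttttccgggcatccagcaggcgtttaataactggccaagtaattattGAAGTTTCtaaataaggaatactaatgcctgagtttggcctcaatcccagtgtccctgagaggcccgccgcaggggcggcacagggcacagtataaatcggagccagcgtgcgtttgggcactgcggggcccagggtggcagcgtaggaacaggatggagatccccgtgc
Hspb7, chr4:141420529-141420828: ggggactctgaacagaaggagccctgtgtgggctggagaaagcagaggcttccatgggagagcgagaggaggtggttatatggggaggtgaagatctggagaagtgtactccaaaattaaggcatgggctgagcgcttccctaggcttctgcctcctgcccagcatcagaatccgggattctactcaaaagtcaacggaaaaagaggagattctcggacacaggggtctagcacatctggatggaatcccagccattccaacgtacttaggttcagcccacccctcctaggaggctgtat

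With the first transcribed base as 1, *Hspb1* holds 2 elements, GAAGTTTC from base -117 to -110 and GAACCTTC from -97 to -90. The same 8 letters, GAAGTTTC, lie from base 3 to 10 of *Hspb8*, from 43 to 50 of *Bag3* and from -120 to -113 of the second *Hspb6* promoter, and *Hspb3* holds GAATTTTC from -224 to -217. An AP-1 site, TGACTCA from -20 to -14, was found in *Bag3* alone among the 7 windows, against 7.81% of all promoters. These letters were found in genes on both sides of the call in KO muscle. A match of letters is a description, and no binding was measured.

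To find when the transcripts diverge, KO was compared with WT at each age. At P21, 5 of the 8 genes were called and all 5 were higher in KO (*Hspb8*, *Hspb7*, *Hspb1*, *Cryab* and *Hspb3*), against 4.67% of the 15179 genes tested that were called in either direction and 3.18% that were called higher. The same 5 genes were called higher at P35, when 16% of 15595 genes were called and 8.49% were higher. *Hspb2*, *Hspb6* and *Bag3* were called at neither age. The median log2 fold change of the 8 genes was 0.67 at P21 and 0.84 at P35, while that of all genes tested was 0.0083 and 0.035. As the set was chosen with earlier results of these data known, these counts and medians describe it and do not test it. Of all calls, 68% were higher in KO at P21 and 53% at P35, and with library totals in place of TMM 90.9% and 93%. Library totals moved the median of all genes by 0.19 at P21 and by 0.40 at P35, and 7 of 8 members were then called at P35, *Hspb2* and *Bag3* being added, against 30% of all genes under that scaling. WT and KO libraries did not overlap for 5 of the 8 genes at P21 (24.7% of all genes tested) and for 6 at P35 (39.6%), the added gene being *Hspb2*.

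At the early ages no member was called. At P1, edgeR and DESeq2 each called 0 of 8 genes (0.0442% of the 18100 genes tested were called by edgeR). In edgeR 1 of 8 had an unadjusted *P*-value under 0.05 (1978 of all 18100). For 0 of 8 the libraries did not overlap (8.62% of all genes). At P14, both tools again called 0 of 8 (0.0318% of 15728 genes), 2 of 8 passed the unadjusted threshold (1072 of all 15728), and 0 of 8 did not overlap (4.84%). The labels name no pairs, but same-numbered P14 libraries deviated together in these data, and their numbers were taken as pairs. WT replicate 2 correlated better with a KO library of another number. With the number as a block 98 genes were called in place of 5, with 0 of 8 members in both fits. In that block fit *Hspb1* (0.41, adjusted *P*=0.00352) and *Hspb7* (0.55, adjusted *P*=0.00383) passed the *P*-value threshold but not the fold threshold. In CPM, 6 of the 8 genes were higher in KO in 4 of 4 pairs, *Hspb2* in 3 and *Hspb6* in 2. The share of all genes with such pairs was not computed, nor the share passing the *P*-value threshold alone in the block fit. As the pairs were also taken from these same data, these values describe the members and do not set them apart from other genes. The log2 fold changes ran from -0.31 (*Hspb3*) to 0.24 (*Hspb1*) at P1. At P14 they ran from -0.0045 (*Hspb6*) to 0.52 (*Hspb7*), and 7 of 8 were above 0.

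**Figure D1:**
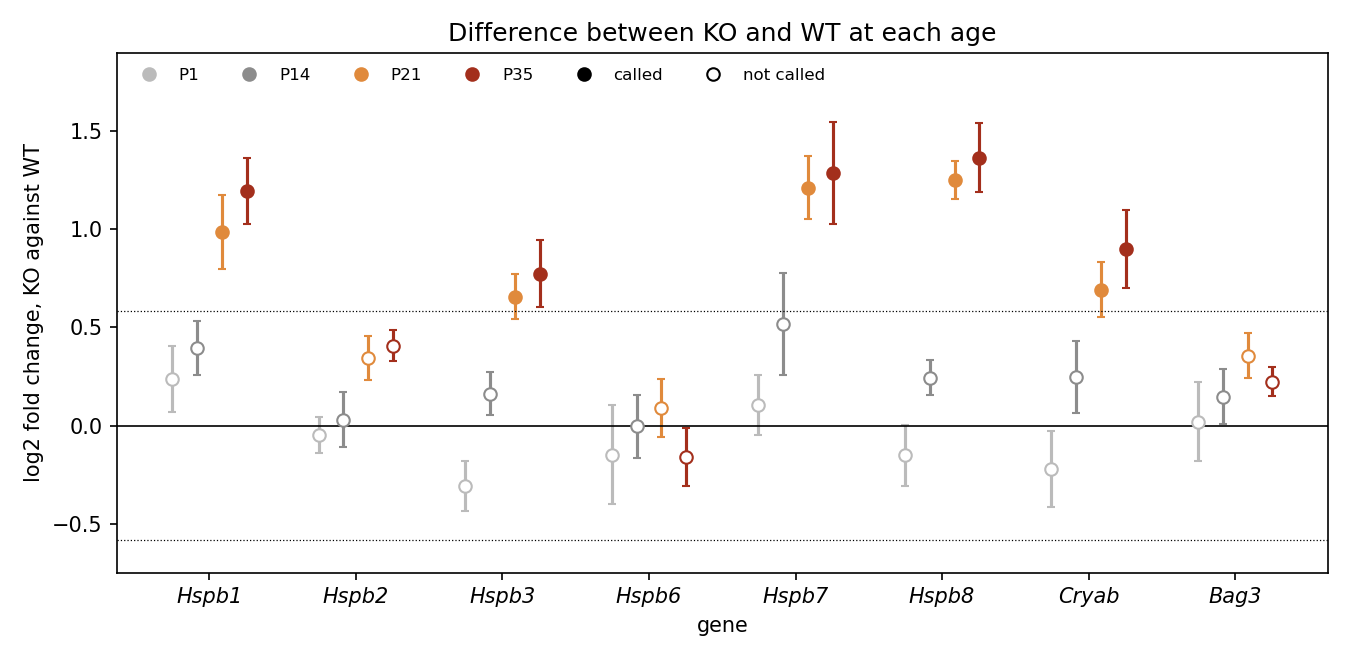
Log2 fold change of KO against WT for each of the 8 genes (points, with SE as bars) at P1, P14, P21 and P35, from n=4 libraries per group, with filled points called, open points not called and dotted lines at the 1.5-fold threshold in either direction. The P21 and P35 points of *Hspb8*, *Hspb7*, *Hspb1*, *Cryab* and *Hspb3* lie above the line, while those of *Hspb6* lie on both sides of 0.

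*Hspb8* encodes the partner that BAG3 binds in chaperone-assisted selective autophagy. The WT mice of P21 had 288, 274, 225 and 284 CPM, and the KO mice had 645, 702, 555 and 627 CPM. The lowest KO value exceeded the highest WT value, the KO difference being 1.25 (SE 0.096, adjusted *P*=0.000128), a rise of 2.38-fold. At P35 its levels were 365, 374, 248 and 368 in WT against 666, 771, 1068 and 929 in KO (all CPM). The ranges were again apart, the KO difference being 1.37 (SE 0.18, adjusted *P*=0.000418). At P1 and P14 the ranges overlapped, with 119 to 172 CPM in WT and 94.9 to 150.3 CPM in KO at P1, and 241 to 260.4 CPM in WT and 257 to 337 CPM in KO at P14.

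*Bag3*, the scaffold of the same complex, was called at neither age. Its levels at P21 were 137, 175, 145 and 139 in WT against 172, 219.6, 200.5 and 164 in KO (all CPM), with overlapping ranges and a KO difference of 0.36 (SE 0.12, adjusted *P*=0.0559). At P35 they were 135, 142, 140.0 and 159 in WT against 156, 168, 162 and 176 in KO (all CPM). The highest WT library lay above the lowest KO library, and the KO difference of 0.22 (SE 0.076, adjusted *P*=0.0386) passed neither threshold, but with library totals it was 0.63 (adjusted *P*=0.00013) and called.

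*Hspb7*, a striated muscle member that binds filamin C in the Z-disc, was measured with a wider spread in KO than in WT. Its WT libraries held 651, 628, 686 and 638 CPM at P21, and its KO libraries 1861, 1777, 1068 and 1292 CPM. All 4 KO libraries were higher, the KO difference being 1.21 (SE 0.16, adjusted *P*=0.00147). At P35 its levels were 301, 454, 412 and 551 in WT against 814, 1595, 740.2 and 974 in KO (all CPM). The genotypes did not overlap there either, and the KO difference was 1.29 (SE 0.26, adjusted *P*=0.00393).

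*Hspb1* encodes HSP25, the mouse form of HSP27, which guards actin filaments and is induced by stress in most tissues. Its P21 levels were 118, 121, 118 and 156 in WT against 242, 345, 245 and 176 in KO (all CPM). The highest WT and the lowest KO library lay close together without overlap, and the KO difference was 0.99 (SE 0.19, adjusted *P*=0.00658). At P35 the levels were 116, 125, 105 and 105 in WT against 240.1, 348, 192 and 233 in KO (all CPM), further apart, the KO difference being 1.2 (SE 0.17, adjusted *P*=0.000607). With the counts of *Hsp25-ps1* added, the log2 fold changes were 0.99 at P21 and 1.2 at P35 and both calls held, a setting chosen after seeing the data.

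*Cryab* encodes alpha-B-crystallin, the chaperone of desmin and titin. It was at 384, 519, 476 and 555 in WT against 656, 822, 706 and 918 in KO (all CPM) at P21, when the ranges were apart and the KO difference was 0.69 (SE 0.14, adjusted *P*=0.00899). At P35 it was at 533, 614, 536 and 677 in WT against 1045, 1568, 822 and 893 in KO (all CPM). The KO library numbered 2 stood above the others, the ranges did not overlap, and the KO difference was 0.90 (SE 0.20, adjusted *P*=0.00582).

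*Hspb2* lies beside *Cryab* and encodes a protein that binds the kinase DMPK and pairs with HSPB3. Its P35 levels were 55.8, 55.1, 48.2 and 58.7 in WT against 69.1, 66.2, 72.9 and 75.7 in KO (all CPM). These ranges did not overlap, and the KO difference of 0.41 (SE 0.079, adjusted *P*=0.00313) passed the *P*-value threshold but not the fold threshold, and with library totals it was 0.81 (adjusted *P*=3.44e-05) and called. At P21 the ranges overlapped, from 32.3 to 44.7 CPM in WT and from 41.5 to 55.2 CPM in KO, the KO difference being 0.34 (SE 0.11, adjusted *P*=0.0563).

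*Hspb3*, the partner of HSPB2 and the member with the lowest mean level per length in every group, was at 26.9, 22.7, 27.1 and 28.0 in WT against 37.7, 50.3, 36.4 and 39.3 in KO (all CPM) at P21. Every KO library was higher, the KO difference being 0.66 (SE 0.12, adjusted *P*=0.00467). Its P35 levels were 24.8, 26.3, 19.5 and 22.2 in WT against 31.7, 29.6, 46.3 and 48.6 in KO (all CPM). The KO libraries formed a low and a high pair, both above WT, and the KO difference was 0.77 (SE 0.17, adjusted *P*=0.00609).

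*Hspb6* encodes HSP20, a target of protein kinase A that is abundant in heart, smooth and skeletal muscle. Its genotypes overlapped, with 966, 1108, 982 and 811 in WT against 1056, 1275, 777 and 977 in KO (all CPM) at P21 and a KO difference of 0.090 (SE 0.15, adjusted *P*=0.707). At P35 it was at 985, 1167, 1062 and 1401 in WT against 1006, 1179, 802 and 1069.7 in KO (all CPM). The highest library of all was a WT library, and the P35 log2 fold change was -0.16 (SE 0.15, adjusted *P*=0.409) but 0.25 (adjusted *P*=0.174) when library totals replaced TMM. Under either scaling *Hspb6* had the lowest log2 fold change of the 8 genes at both P21 and P35.

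**Figure D2:**
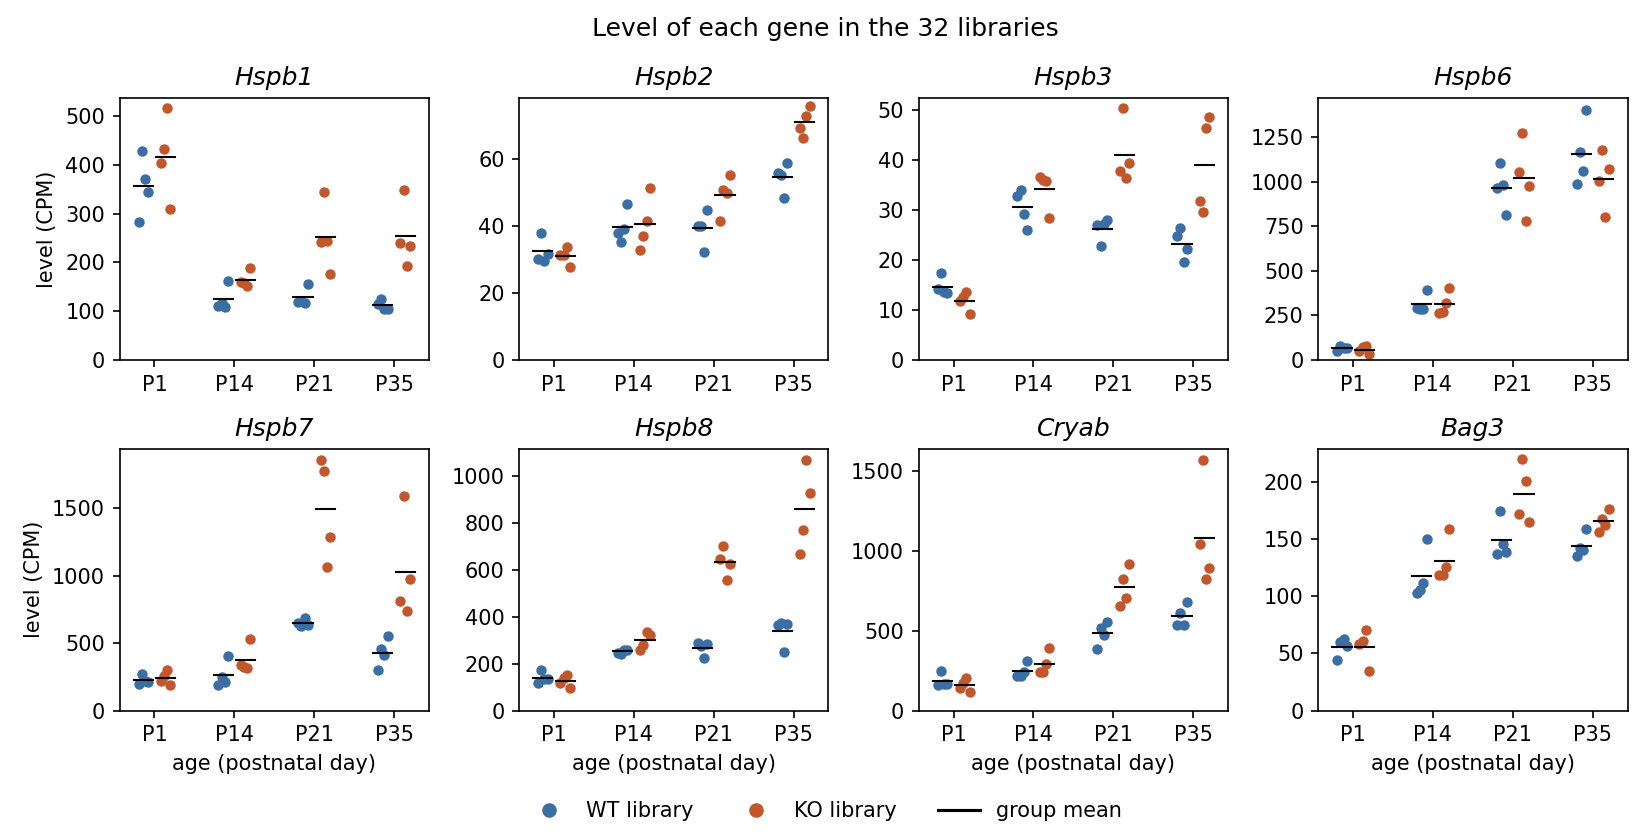
Level in CPM of each of the 8 genes in all 32 libraries against age, with WT in blue, KO in orange and black lines for the mean of n=4, each panel on its own axis from 0. KO points stand apart from WT points at P21 and P35 for *Hspb1*, *Hspb3*, *Hspb7*, *Hspb8* and *Cryab* and mix with them at every age for *Hspb6* and *Bag3*.

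The calls differed in how far they held when single libraries were left out. Each refit also has 1 library fewer, and a call near the threshold can be lost for that alone. At P21, *Hspb8* and *Hspb7* were called whichever of the 8 libraries was left out. The call of *Hspb1* held there without WT replicate 4 or KO replicate 4 and was lost without any of the other 6, at adjusted *P*-values of 0.0106 to 0.0224. *Hspb3* lost its call without WT replicates 1 or 2 or KO replicates 2 or 4 (adjusted *P*=0.0129 to 0.0145, and 0.00697 without KO replicate 2, where the log2 fold change of 0.54 was under the fold threshold), and *Cryab* kept its call only without KO replicate 1, with adjusted *P*-values of 0.011 to 0.0282 otherwise. At P35, *Hspb8* and *Hspb1* were called in all 8 cases. *Hspb7* lost the call there without WT replicates 1, 2 or 3 (adjusted *P*=0.0112 to 0.013), *Cryab* without any WT replicate or KO replicate 1 (0.0113 to 0.0186), and *Hspb3* without any WT replicate or KO replicates 3 or 4 (0.0109 to 0.0223). Over all genes the number of DEGs fell from 709 to between 417 and 626 at P21 and from 2496 to between 1937 and 2450 at P35 in the same refits. The lowest log2 fold change of the 5 genes in these refits was 0.54 (*Hspb3* at P21).

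Whether the KO difference itself changed between ages was tested as an interaction over all 32 libraries. From P1 to P14, 0 of 8 genes were called by edgeR or by DESeq2 (0.0161% of the 18583 genes tested were called by edgeR). In edgeR 1 of 8 had an unadjusted *P*-value under 0.05 (1200 of all 18583). From P14 to P21, edgeR called 0 of 8 (0.425% of all genes) and 3 passed the unadjusted threshold (2398 of all 18583). *Hspb8* came closest, with a KO difference that grew by 0.99 (SE 0.21, adjusted *P*=0.0123) on the log2 scale, and DESeq2 called it, as did edgeR without KO P21 replicate 3. From P21 to P35, 0 of 8 were called by either tool (0.463%) and 0 of 8 had an unadjusted *P*-value under 0.05 (3241 of all 18583). Between P14 and P35, a comparison added after seeing the data, *Hspb8* was the only member called (8.53% of all genes), at 1.10 (SE 0.21, adjusted *P*=0.000638), and its call held in all 16 refits without 1 library. With library totals 5 of 8 were called there (*Hspb1*, *Hspb2*, *Hspb3*, *Hspb8* and *Cryab*), against 16.8% of all genes. For *Hspb1* the same difference was 0.77 (SE 0.26, adjusted *P*=0.0382), and for *Bag3* it was 0.050 (SE 0.22, adjusted *P*=0.919).

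The 8 genes were also followed over age within each genotype. In WT, 5 of 8 were called from P1 to P14 (55.1% of 17435 genes). *Hspb6* at 2.25 (SE 0.15, adjusted *P*=6.79e-07), *Bag3* at 1.07 (SE 0.14, adjusted *P*=8.45e-05), *Hspb3* at 1.05 and *Hspb8* at 0.83 were higher. *Hspb1* was the member that fell in WT, from 283, 428, 371 and 343 CPM at P1 to 111, 117, 109 and 163 CPM at P14, a change of -1.52 (SE 0.16, adjusted *P*=1.60e-05) on the log2 scale. Keratinocyte markers, 12 genes of the skin, summed to 2356 to 7419 CPM in WT and 2045 to 6134 CPM in KO at P1 and to 6.15 to 36.9 CPM at the later ages, and their part in the P1 levels of *Hspb1* was not tested. Library totals in place of TMM shifted the median of all genes in this step by -0.77 in WT, and the share of calls that were higher at P14 went from 44.8% to 13.7%. Under that scaling the log2 fold changes were 0.29 for *Hspb3*, 0.06 for *Hspb8* and 0.28 for *Bag3*, none of them called, while *Hspb6* (1.47) and *Hspb1* (-2.30) were called. *Hspb2*, *Hspb7* and *Cryab*, not called with TMM, changed sign, from 0.28, 0.21 and 0.39 to -0.49, -0.58 and -0.39.

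Between P14 and P21, 3 members rose in WT. *Hspb6* increased by 1.61 (SE 0.14, adjusted *P*=0.000367), *Hspb7* by 1.29 (SE 0.22, adjusted *P*=0.00381) and *Cryab* by 0.96 (SE 0.16, adjusted *P*=0.00326) on the log2 scale, which makes 3 of 8 called against 5.53% of 15337 genes. Without WT P14 replicates 1, 2 or 3 or WT P21 replicate 2, *Hspb6* alone was called, and without WT P21 replicate 1 *Hspb7* was not. With library totals the share of all calls that were higher went from 53.1% to 30.2%. *Hspb8* was at 0.074 (SE 0.083, adjusted *P*=0.538), and *Hspb1* at 0.023 (SE 0.15, adjusted *P*=0.925). From P21 to P35 edgeR called 0 of 8 in WT (2.45% of 15039 genes), with 3 at an unadjusted *P*-value under 0.05 (5174 of all 15039). DESeq2 called *Hspb7*, whose edgeR value was -0.62 (SE 0.16, adjusted *P*=0.0272).

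In KO muscle 1 more gene was called than in WT at each of the first steps, a difference that no interaction test of edgeR called. From P1 to P14, 6 of 8 were called (52.6% of 17719 genes), *Cryab* being the addition at 0.86 (SE 0.21, adjusted *P*=0.00410), and under library totals 3 of 8 were called (*Hspb1*, *Hspb3* and *Hspb6*), with the share of higher calls at 14.5% in place of 44.7%. From P14 to P21, 4 of 8 were called (7.04% of 15585 genes). *Hspb7* rose by 1.97 (SE 0.22, adjusted *P*=0.000841), *Hspb6* by 1.68 (SE 0.17, adjusted *P*=0.000632), *Cryab* by 1.39 (SE 0.17, adjusted *P*=0.00112) and *Hspb8* by 1.07 (SE 0.11, adjusted *P*=0.000525) on the log2 scale. From P21 to P35 edgeR and DESeq2 called 0 of 8 (4.01% of 15734 genes), and 3 had an unadjusted *P*-value under 0.05 (6096 of all 15734). *Hspb2* had the smallest adjusted *P*-value there, at 0.54 (SE 0.092, adjusted *P*=0.00512), under the fold threshold. It was called without KO P21 replicate 4 and with library totals, which moved the share of higher calls from 51.7% to 83.4%. In WT the same share moved from 57.1% to 42%. The WT P21 and KO P21 libraries enter both of their neighboring steps and the genotype comparison, so that these values share samples. Over all genes, leaving out 1 library moved the number called from 848 to between 349 and 1364 in WT and from 1097 to between 396 and 1884 in KO from P14 to P21. From P21 to P35 it moved from 368 to between 116 and 264 in WT and from 631 to between 187 and 901 in KO. The shares of all genes called in these steps thus depend on the libraries in the fit. Each refit also has 1 library fewer, and the part of single libraries cannot be told apart from that of group size.

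Per length of the gene, the most abundant transcript changed with age. Levels divided by the exon length of each gene, in CPM per kb, placed *Hspb1* first at P1 (346 ± 58.5 in WT, SD, n=4), above *Cryab* (126 ± 28.1) without overlap. At P14 *Cryab* led in WT (166 ± 31.1), but its range overlapped that of *Hspb6* (137 ± 23.0), *Hspb6* that of *Hspb8* (129 ± 4.94), and *Hspb8* that of *Hspb1* (121 ± 24.6). At P21 and P35 the WT order began with *Hspb6* (421 ± 52.8 and 502 ± 78.7) and *Cryab* (327 ± 49.7 and 399 ± 46.5), whose ranges overlapped. *Hspb3* was last in all 8 groups, with a range that overlapped its neighbor's in 6 of them.

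KO muscle had another order at the late ages. At P21 *Hspb7* (541 ± 138 CPM per kb), *Cryab* (524 ± 79.6), *Hspb6* (444 ± 89.6) and *Hspb8* (324 ± 31.0) overlapped from each to the next. With the longest transcript as the length in place of merged exons, *Cryab* (694 CPM per kb) came before *Hspb7* (541) there, and 58 of the 64 places in the 8 orders were the same. At P35 *Cryab* led (731 ± 228) without overlapping *Hspb6* (441 ± 68.8), which was level with *Hspb8* (440.4 ± 90.6). As a share of the per-length sum of the 8 genes, *Hspb6* made up 33.6% ± 1.68 in WT and 18.2% ± 1.89 in KO at P35 (SD, n=4). *Hspb8* made up 11.7% ± 1.87 in WT and 18.7% ± 5.71 in KO. The sum of the 7 small heat shock genes, in CPM, was 2475 to 2712 in WT and 3437 to 5021 in KO libraries at P21, and 2379.6 to 3184 in WT and 3744 to 5557 in KO at P35.

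**Figure D3:**
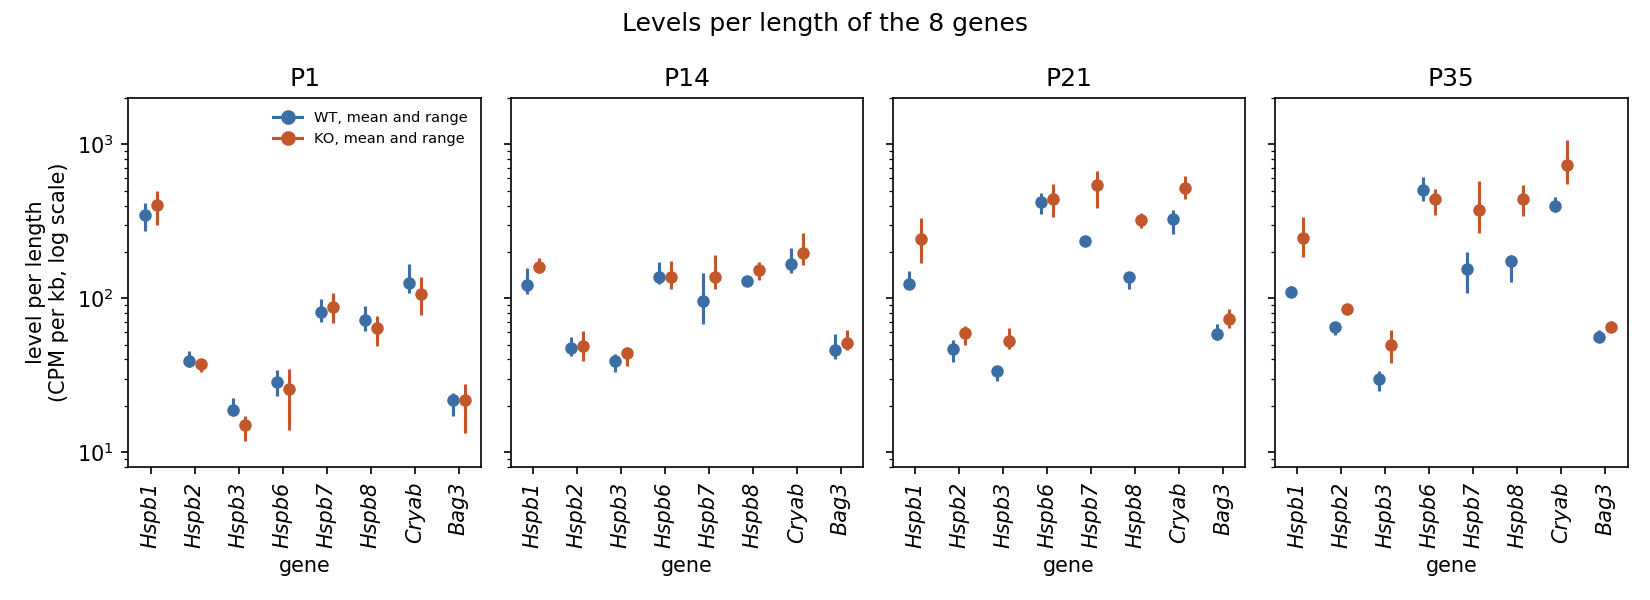
Level per length (CPM per kb of exon, log axis) of the 8 genes in WT (blue) and KO (orange) at each age, with points for the mean and lines for the range of n=4 libraries. *Hspb1* is highest at P1, *Hspb6* in WT at P21 and P35, and *Cryab* in KO at P35.

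Ratios between 2 members within a library do not depend on how libraries are scaled. At 4 ages 3 of them were compared by exact two-sided permutation of the 8 libraries, a measure added after seeing the data. *Hspb8* had the highest KO log2 fold change of the 8 genes at P21 and P35, *Hspb6* the lowest, and *Bag3* was called at neither age with TMM. With members chosen that way, ratios that are apart between genotypes restate those differences and are not further support. With 4 against 4 libraries the smallest possible *P*-value is 0.0286. After Benjamini-Hochberg adjustment over the 12 tests the smallest value was 0.0858, so that no ratio passed a threshold of 0.05. The ratio of *Hspb8* to *Bag3* per length was 2.76, 2.06, 2.04 and 2.69 in the WT libraries of P21 and 4.93, 4.2, 3.64 and 5.01 in the KO libraries. These did not overlap, and the mean difference was 0.90 on the log2 scale (exact permutation *P*=0.0286). At P35 the ratio was 3.55, 3.46, 2.33 and 3.05 in WT and 5.63, 6.05, 8.67 and 6.93 in KO, again without overlap (1.14 on the log2 scale, exact permutation *P*=0.0286). At P1 and P14 the genotypes overlapped.

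The ratio of *Hspb8* to *Hspb6* behaved likewise at P21, at 0.352, 0.291, 0.270 and 0.412 in WT and 0.720, 0.649, 0.843 and 0.757 in KO, and at P35 it was 0.436, 0.378, 0.276 and 0.310 in WT and 0.781, 0.772, 1.57 and 1.02 in KO. Both ages had no overlap (exact permutation *P*=0.0286 each). The ratio of *Cryab* to *Hspb2*, the neighbors on chromosome 9, was 5.43, 7.30, 8.31 and 7.0 in WT and 8.92, 9.14, 7.98 and 9.36 in KO at P21, with an exact permutation *P*=0.0571. At P14 and P35 it gave the same *P*-value, and its genotypes overlapped at all 4 ages. The permutation does not use the pairs of P14, in which the *Cryab* to *Hspb2* and the *Hspb8* to *Hspb6* ratio were higher in KO in 4 of 4 pairs and the *Hspb8* to *Bag3* ratio in 3 of 4. Those pairs were taken from these same data, and ratios of other genes were not counted, so this is a description. In both genotypes the *Cryab* to *Hspb2* ratio was higher at P21 than at P14 in every library.

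**Figure D4:**
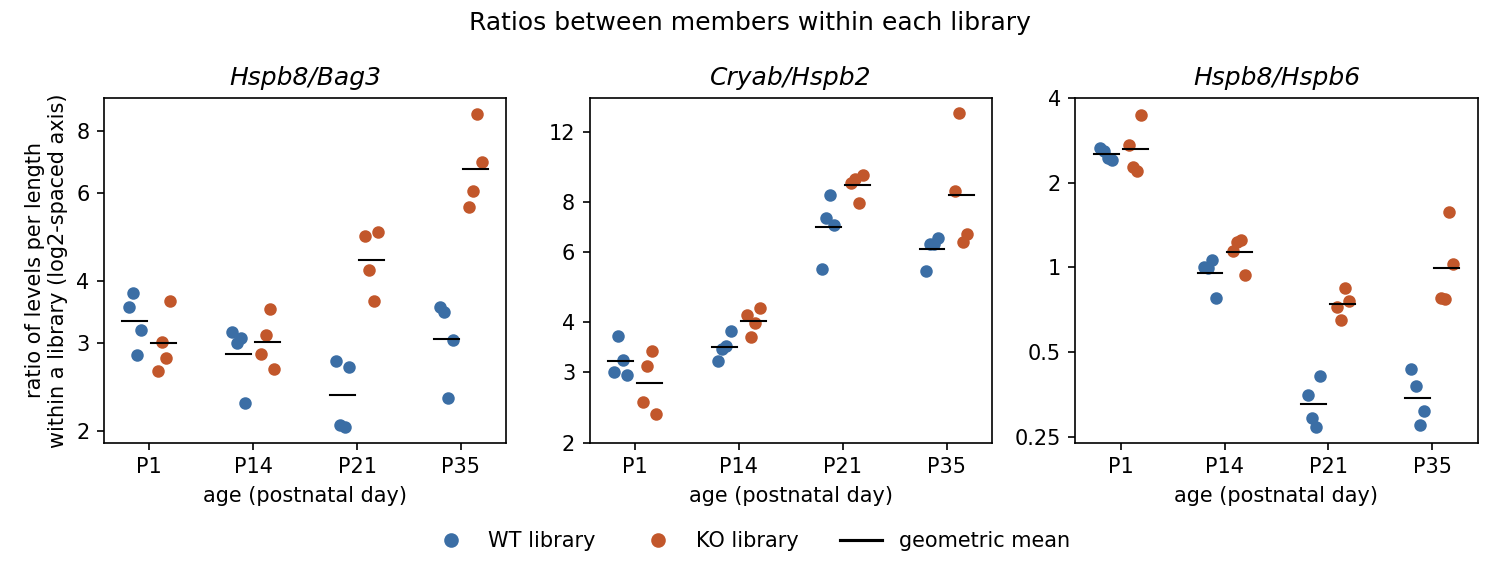
Ratio of the levels per length of *Hspb8* to *Bag3*, *Cryab* to *Hspb2* and *Hspb8* to *Hspb6* within each library (points, log axis) against age, with black lines for the geometric mean of n=4. WT (blue) and KO (orange) are apart at P21 and P35 in the first and the third panel and overlap at every age in the second.

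Partners, cofactors and clients of the 8 genes were taken from 7 lists. In the list of chaperone-assisted selective autophagy, edgeR and DESeq2 each called 2 of 17 genes higher and 0 lower at P21 (median log2 fold change 0.12). In edgeR 9 of 17 had an unadjusted *P*-value under 0.05. Of all genes tested at P21, edgeR called 3.18% higher and 4.67% in either direction, and 5329 of 15179 passed the unadjusted threshold. *Sqstm1*, the autophagy receptor p62, was at 237 to 338 CPM in WT and 409 to 548 CPM in KO at P21, the KO difference being 0.75 (SE 0.12, adjusted *P*=0.00342). *Map1lc3a*, a coat protein of autophagosomes, rose by 0.81 (SE 0.11, adjusted *P*=0.00162), and *Synpo2*, which links BAG3 to the membrane that engulfs its cargo, was at -0.33 (SE 0.069, adjusted *P*=0.00934), under the fold threshold. At P35, 1 gene of this list was called higher and 2 lower (median 0.12), a share near the 16% of all genes called at that age. *Synpo2* fell from 876 to 1002 CPM in WT to 502 to 628 CPM in KO, the KO difference being -0.73 (SE 0.10, adjusted *P*=0.000607). *Gabarapl1* was at 0.50 (SE 0.083, adjusted *P*=0.00148) without a call, and *Map1lc3a*, the gene called higher, was at 0.71.

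Of the clients and partners of small heat shock proteins, edgeR called 3 of 16 higher at P21 and 0 lower (median 0.04), while DESeq2 called 3 higher and 1 lower. In edgeR 8 of 16 had an unadjusted *P*-value under 0.05 (5329 of all 15179 genes). Of all genes tested, edgeR called 3.18% higher and 4.67% in either direction. *Trim63*, the ubiquitin ligase MuRF1, rose by 1.36 (SE 0.11, adjusted *P*=0.000142), *Pdlim3*, a Z-disc protein, by 1.05 (SE 0.12, adjusted *P*=0.000815) and *Des*, which encodes desmin, the client of alpha-B-crystallin, by 0.81 (SE 0.10, adjusted *P*=0.00109). *Des* was at 2228 to 2643 CPM in WT and 3799.8 to 5019 CPM in KO. At P35, when 8.49% of all genes were called higher and 16% in either direction, the same 3 genes were called higher, at 1.28, 0.80 and 0.78. Another 2 of 16 were called lower (median -0.07), with 3 lower by DESeq2. Those 2 were *Neb* and *Acta1*, which encode nebulin and skeletal actin and were at -0.82 and -0.76. They fall outside the 3 genes with the smallest adjusted *P*-values and were named after their values were seen.

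Among other heat shock genes, of 17 HSP70, HSP110 and J-protein genes, 1 was called higher at P21 and 2 at P35 (of all genes tested, 3.18% and 8.49% were called higher), shares near the background. *Hspa1b*, a stress-induced HSP70, was at 1.33 (SE 0.27, adjusted *P*=0.00917) at P21 and 1.79 (SE 0.22, adjusted *P*=0.000348) at P35, and its neighbor *Hspa1a* at 1.28 (SE 0.33, adjusted *P*=0.0249) and 1.74 (SE 0.21, adjusted *P*=0.000329). At P35 *Hspa1b* was at 2.97 to 5.40 CPM in WT and 10.2 to 17.1 CPM in KO. These genes are near-identical copies between which reads may be split, so that each value is uncertain. Medians of this list were 0.19 at both ages. *Dnajb2* (0.48), *Hsph1* (0.45) at P21 and *Dnajb11* (0.41) at P35 had adjusted *P*-values under 0.01 but smaller differences than the fold threshold.

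HSP90, HSP60 and their co-chaperones gave 0 of 17 calls at P21 and at P35 by either tool, with 9 of 17 at an unadjusted *P*-value under 0.05 at both ages. Of all genes tested, 5329 of 15179 passed that unadjusted threshold at P21 and 7848 of 15595 at P35. By edgeR 4.67% and 16% of all genes were called. At P21 *Hsp90ab1* (0.50), *Ptges3* (0.38) and *Hspd1* (-0.32) had the smallest adjusted *P*-values, and at P35 *Hspd1* (-0.41), *Hsp90aa1* (0.57) and *Fkbp4* (-0.37). The BAG family apart from *Bag3* gave 0 of 5 by either tool at both ages, with 1 and 2 genes under the unadjusted threshold. *Bag1* (0.23 at both ages), *Bag6* (0.09 and -0.20), *Bag4* (-0.07 at P21) and *Bag2* (0.10 at P35) came first by adjusted *P*-value. Heat shock factors gave 0 of 4 tested genes by either tool, with 2 at P21 and 3 at P35 under the unadjusted threshold, led by *Hsf2* at 0.39 (SE 0.10, adjusted *P*=0.0240) at P21 and 0.30 (SE 0.077, adjusted *P*=0.0126) at P35. *Hsbp1* (0.23) and *Hsf4* (0.32) followed at P21, and *Hsf1* (-0.20) and *Hsf4* (0.70) at P35. Of the 4 further genes listed with the small heat shock genes only *Hspb11* passed the filter at these ages. It was listed by its symbol, and whether its protein is a small heat shock protein was not checked here. *Hspb11* was called at P35, from 1.76 to 2.29 CPM in WT to 3.04 to 3.94 CPM in KO, with 0.75 (SE 0.15, adjusted *P*=0.00338). At P1 and P14, 0 genes of the 7 lists were called by either tool, with 6 genes at an unadjusted *P*-value under 0.05 at P1 and 7 at P14. Of all genes tested, 1978 of 18100 passed that threshold at P1 and 1072 of 15728 at P14.

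**Figure D5:**
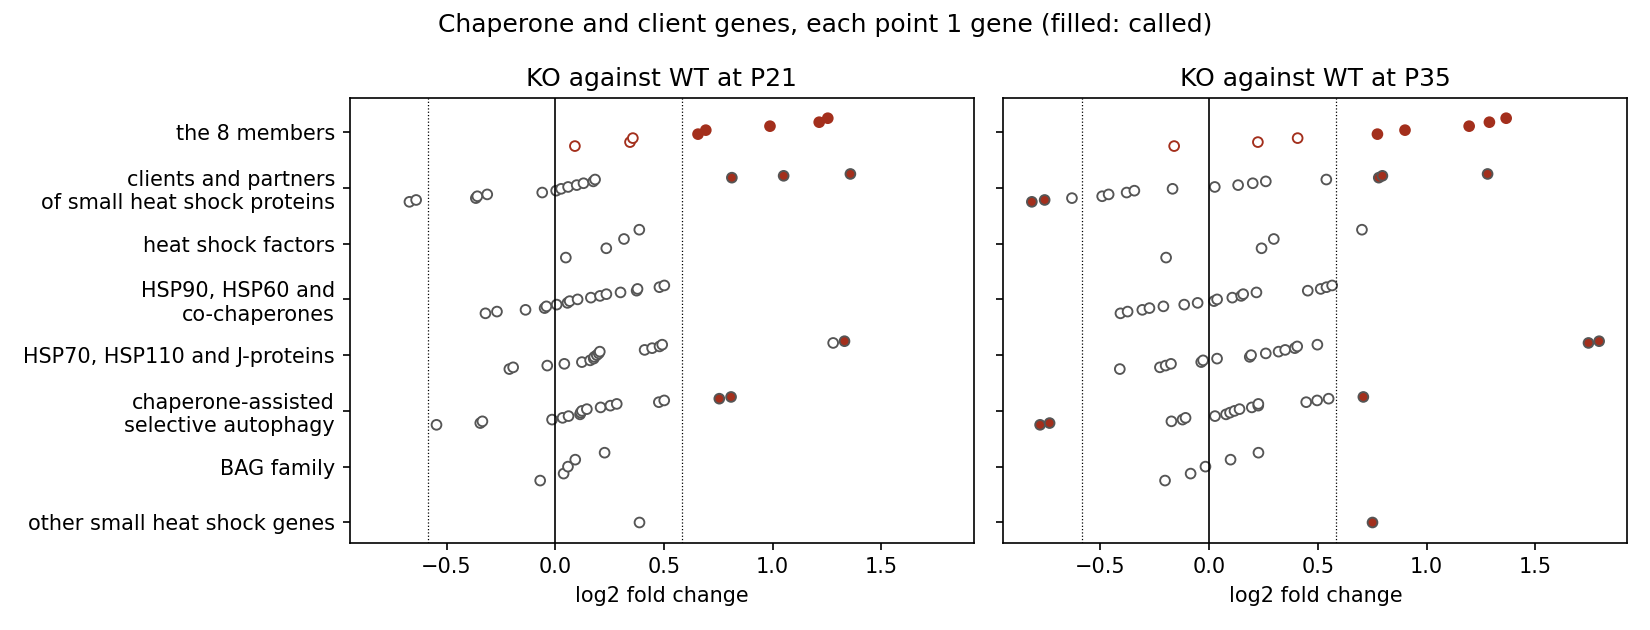
Log2 fold change of KO against WT at P21 (left) and P35 (right) for the 8 genes (top row) and for each tested gene of 7 lists of chaperones, cofactors and clients, with 1 point per gene, filled where called, and dotted lines at 1.5-fold in either direction. The BAG family, HSP90 and heat shock factor rows have no filled point at either age, while each other list has filled points at P21, P35 or both. The top row has 5 of 8 filled at each age, and of all genes tested 4.67% were called at P21 and 16% at P35. The 8 genes and all lists were chosen with earlier results of these data known, so that the rows are not a test.

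Marker genes of fiber types and of other cells were measured in the same libraries. Of all genes tested, 4.67% were called in either direction at P21 and 16% at P35, and 3.18% and 8.49% were called higher. Slow fiber markers summed over 9 genes to 784 to 1608 CPM in WT and 1114 to 1698 CPM in KO at P21 with 0 of 9 called, and to 232 to 520.1 CPM in WT and 1219 to 2846 CPM in KO at P35 with 6 of 9 called higher. The P21 sums overlapped between genotypes, and the P35 sums did not. Fast fiber sums over 10 genes at P35 were 154679 to 228474 CPM in WT and 96100.1 to 136396 CPM in KO, with 2 of 10 called lower, while at P21 they overlapped (182309 to 241198 and 163914 to 182781 CPM, 1 of 10 lower). Macrophage sums over 8 genes were 102 to 124 CPM in WT and 137 to 169 CPM in KO at P21 (3 of 8 called higher), and 102 to 124 and 133 to 202 CPM at P35 (5 of 8). Immediate early genes, which respond to stress and handling, summed over 8 genes to 228 to 498 CPM in WT and 221 to 442 CPM in KO at P21 with 0 of 8 called, and to 239 to 448 and 450.1 to 659.9 CPM at P35 with 6 of 8 called higher.

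Smooth muscle and pericyte sums over 10 genes were 1212 to 1604 CPM in WT and 1027 to 1187 CPM in KO at P35 (2 of 10 called lower), and at P21 they were 1368 to 1717 and 1121 to 1231 CPM, apart as well with 0 of 10 called. Endothelial sums over 7 genes were 367 to 654 and 322 to 390.3 CPM at P35 (2 of 7 lower), with overlap, and 604 to 930.4 and 484 to 579 CPM at P21 (0 of 7 called), without it. Satellite cell and myoblast sums over 6 genes were 68.2 to 98.0 and 117 to 182 CPM at P35 and 78.0 to 94.5 and 102 to 137 CPM at P21 (1 of 6 higher and 1 lower at both ages). Adipocyte sums over 6 genes were 219 to 351 and 360.0 to 488 CPM at P35 (4 of 6 higher) and overlapped at P21 (0 of 5 tested called), and the Schwann cell (0 of 6 called) and fibroblast (0 of 7) sums overlapped at both ages. Keratinocyte sums were 6.15 to 7.05 and 13.4 to 17.2 CPM at P21, with *Perp* and *Sfn* called higher of 3 tested genes, and at P35 they were 10 to 12.5 and 23.1 to 36.9 CPM, with the same 2 called higher of 4 tested genes and the defining genes *Krt5* and *Krt14* at or below 0.398 CPM in every P35 library. The shares of all genes called, 4.67% at P21 and 16% at P35, stand beside these counts as well. The part of these cell types in the levels of the 8 genes was not tested.

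Genes whose pattern over the 32 libraries was closest to each member were ranked by Pearson's r of log2 CPM among 13002 other genes, as a description, since all points share the same 8 groups and the scaling. For *Hspb8* these were *Ubxn4* (r=0.98), *Camk2d* (0.979) and *Wsb2* (0.975), and for *Bag3* they were *Ppm1b* (0.977), *Rnf115* (0.969) and *Fxr2* (0.966). *Hspb6* had the closest matches of all, *Tom1l2* (0.988), *Aen* (0.987) and *Smyd1* (0.985). *Hspb7* was closest to *Ankrd2* (0.948), *Lmcd1* (0.924) and A330074K22Rik (0.907), *Cryab* to *Cnksr1* (0.96), *Stau2* (0.957) and 5031439G07Rik (0.956), and *Hspb3* to *Popdc3* (0.961) and *Capns1* (0.96). *Hspb2* followed *Flot1* (0.948), *Pin4* (0.931) and *Vezt* (0.928). *Hspb1* had *Hsp25-ps1* first (0.947), the pseudogene with which it shares reads, then *Ldlrad3* (0.923) and *Bex1* (0.921). Among the 8 genes themselves r over the 32 libraries reached 0.948 for *Hspb6* and *Bag3* and 0.908 for *Hspb8* and *Cryab*, and *Hspb1* had a negative r with each of the other 7, from -0.59 with *Hspb6* to -0.02 with *Hspb7*. After the mean of each group was removed, r of *Hspb1* with the other 7 ran from 0.066 (*Hspb3*), 0.307 (*Hspb8*) and 0.326 (*Hspb2*) to 0.692 (*Hspb7*).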

How the data were processed

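RNA-seq was made from poly(A) RNA of whole TA muscle with a directional kit, without molecular identifiers that the sources name. The deposited values were expected counts per gene, which the authors made per library with STAR 2.6.1 and RSEM 1.2.22 on GRCm38 according to the submitters' processing notes, while the methods of the study name HTSeq as the counter. Whether the counting used strand is not given in the sources used here. Of the values, 4.26% were not whole, and all were rounded before testing. Totals of 49321019 to 85631391 per library limited the counting error only.

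Groups followed the genotype and age labels, and 54723 of 54838 genes had symbols (GENCODE M21). Each pair of groups was tested by itself with edgeR 4.0.16 (R 4.3.3), using filterByExpr, TMM, the quasi-likelihood test and Benjamini-Hochberg adjustment over all genes tested. Genes changed by over 1.5-fold in either direction at an adjusted *P* under 0.01 were called. The KO effect was compared between ages by interaction terms in 1 fit of 32 libraries (adjusted *P* under 0.01). CPM came from TMM over all libraries, and CPM per kb from merged exon lengths. Code was tested on simulated data.

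The 8 genes and all lists were chosen with earlier results of these data known. The text names every member, the 3 genes of each list with the smallest adjusted *P* at P21 and at P35, and the 3 genes most correlated with each member (prior count of 2), except for genes that are not reported here. Same-numbered P14 libraries deviated together, with correlations of 0.19 to 0.588 in 4 of 4 pairs, so the numbers were taken as pairs at P14. The labels name no pairs, and WT replicate 2 correlated better with a KO library of another number. Replicates of a group differed by more than sampling noise. Alternatives were DESeq2 1.42.0, other scalings, filters and thresholds, a replicate block, single libraries left out and other fits. The P35 against P14 interaction, the ratios, the sum of *Hspb1* with its pseudogene and the removal of the P14 libraries numbered 4 were added after seeing the data.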

Additional observations from a re-analysis of the deposited data

Results flagged for a closer look

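In 7 of the 64 groups of 4 libraries formed by 8 genes and 8 groups, 1 library stood apart from the other 3 by Dixon's ratio of gap to range at its 95% level, which chance gives in about 1 of 20 groups. The 8 genes share the same libraries, so that the 64 groups are not independent and their number was not tested against that rate. Of the 7, 4 were P14 libraries numbered 4. *Hspb1* was at 163 CPM in WT P14 replicate 4 (the others at 109 to 117), *Hspb6* at 394 CPM in the same library (285 to 291), *Hspb7* at 532 CPM in KO P14 replicate 4 (318 to 340.3) and *Hspb3* at 28.4 CPM in that library (35.9 to 36.6). The other 3 were *Hspb1* at 156 CPM in WT P21 replicate 4 (118 to 121), *Hspb8* at 248 CPM in WT P35 replicate 3 (365 to 374) and *Cryab* at 248 CPM in WT P1 replicate 2 (161 to 169). With both P14 libraries numbered 4 left out, 0 of 8 genes were called between KO and WT at P14 by edgeR, as with them. From P14 to P21 3 of 8 were then called in WT and 5 of 8 in KO, *Bag3* being the added gene.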

How the results depend on the processing

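For the KO difference of single genes at single ages, and apart from leaving out single libraries, 226 values kept their direction and side of the threshold, 4 turned direction, 2 gained and 4 lost a call. Numbers of genes called are not part of that tally. With library totals the number of the 8 genes called went from 5 to 2 in WT and from 6 to 3 in KO from P1 to P14, from 0 to 1 in KO from P21 to P35, and for the KO effect from 0 to 1 (P21 against P14) and from 1 to 5 (P35 against P14). *Hspb6* turned to 0.077 at P14 and 0.25 at P35. DESeq2 called 1 gene from P21 to P35 in WT. The KO effect of P21 against P14 was called for 1 gene (*Hspb8*) with DESeq2, with at least 10 counts in every library, with only the 16 libraries of both ages and at an adjusted *P* under 0.05, where that of P35 against P14 gave 2. DESeq2 called 1042 genes at P21 and 2997 at P35, against 709 and 2496 by edgeR. *Cryab* at P21 had an adjusted *P* of 0.0174 with all 32 libraries in 1 fit. The cause of these changes was not tested.

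With the replicate block, 3 of 8 genes were called at P21 in place of 5, as *Hspb1* (adjusted *P*=0.018) and *Hspb3* (0.016) lost their calls, and 4 at P35, as *Hspb3* did (0.0199). *Bag3* at P1 turned to -0.014. The numbers were taken as pairs only at P14, the mean correlations being -0.14 at P1, 0.0735 at P21 and 0.0487 at P35.

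Without 1 library each, calls ranged from 2 to 4 at P21, 2 to 5 at P35, 1 to 3 from P14 to P21 in WT, 4 to 5 in KO, 5 to 7 from P1 to P14 in KO, 0 to 1 from P21 to P35 in KO and 0 to 1 for the KO effect of P21 against P14. Uncalled values that changed sign were those at P1 of *Bag3* (-0.12 to 0.20), *Hspb2* (-0.10 to 0.027), *Hspb7* (-0.026 to 0.20) and *Hspb6* (-0.34 to 0.055), at P14 of *Hspb2* (-0.10 to 0.12) and *Hspb6* (-0.15 to 0.12), and at P21 of *Hspb6* (-0.040 to 0.20). Without both P14 libraries numbered 4, *Hspb2* at P14 was at -0.019.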
